A study of Mus musculus with 4 samples.

Results

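Immediate early genes are transcribed within minutes of strong neuronal activity, from signaling enzymes and transcription factors that are already in the cell and with no need for new protein. Most of them encode transcription factors that in turn regulate later genes, while Arc acts at the synapse and Dusp1 dampens the kinase signaling that started the response. Their RNA is short lived, and in forebrain neurons it is widely used as a trace of recent activity. The 10 genes described here, Arc, Egr1, Egr3, Fos, Junb, Jun, Nr4a1, Npas4, Ier2 and Dusp1, were chosen by name from a list of immediate early genes, and all 10 were found by symbol among the 32285 genes of the count tables. Together they gave 22693 unique molecular identifiers (UMIs, each the tag of 1 captured mRNA molecule).

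The mice were ArcCreERT2::eYFPflx males on a C57BL/6 background, 3 to 4 months old. The 2 trained mice learned to avoid a 60 degree shock zone in a rotating arena over 4 trials of 30 min (active place avoidance), and the 2 untrained mice met the arena with no active shock zone. Mice of both groups were given 4-hydroxytamoxifen under brief isoflurane anesthesia before a 10 min retention test without shock, and brain tissue was taken 3 days after that test. A 10 µm coronal section of each mouse was placed on a Visium slide, where every barcoded spot captures the RNA of a small group of cells. In this line a Cre recombinase that needs tamoxifen is expressed from the Arc promoter and switches on eYFP at the floxed Rosa26 locus, so Arc is at the same time a gene measured here and the driver of the label. The count tables hold no feature for eYFP or Cre, and the closest feature is Gt(ROSA)26Sor, the RNA of that locus. Because each mouse gave 1 section, the section was the replicate (n = 2 per group), and the spots of a section were not counted as replicates.

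The question addressed by the group comparison is whether gene expression differs between trained and untrained mice days after the memory was last used, which for immediate early genes is a question about levels long after the activity of the task. The trained sections covered 2865 (trained 1) and 3055 (trained 2) spots and held 7119995 and 10330015 UMIs, with medians of 1936 and 2493 UMIs per spot. The untrained sections covered 2359 (untrained 1) and 2661 (untrained 2) spots and held 3560294 and 6581748 UMIs, with medians of 1048 and 1851. Untrained 1 was thus the shallowest section, and it stood apart in position too: its tissue reached the upper edge of the capture area at the hippocampus, so that the dorsal and medial cortex above it was not captured. Trained 2 had the lowest share of mitochondrially encoded UMIs, 6.83%, against 12.2%, 12.1% and 11.6% in trained 1, untrained 1 and untrained 2. Training differences, shares of spots, profile correlations and co-detection of the 10 genes are therefore also given without untrained 1 for the values the text turns on, and other values rest on all 4 sections unless given by section.

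Although the labels call the tissue hippocampus, the sections covered much of a brain hemisphere. Spots were assigned to 14 regions by lists of 106 marker genes that hold none of the 10 genes, each spot taking the list that led it, and a region's name below means the spots led by that list. Of 10940 spots, 9741 (89.0%) were led by a list. The lists of the CA1 pyramidal layer, the CA3 pyramidal layer and the dentate granule layer led spots in all 4 sections, for instance 139, 150, 157 and 149 spots of the CA1 pyramidal layer in trained 1, trained 2, untrained 1 and untrained 2. The lists of upper, layer 5 and layer 6 cortex together led 20.03%, 15.1%, 17.0% and 18.5% of the spots of those sections. Layer 5 cortex was weakly set apart: its marker Vat1l was higher inside its spots than outside in 2 of 4 sections. Its largest group of adjoining spots held 24, 49, 13 and 18 of 147, 143, 107 and 148 spots. A level below is in CPM, the UMIs of a gene per 1000000 UMIs of a section or region. Such levels follow how well the 3′ end of a transcript is captured and are not scaled by its length, so they are compared between places and not between genes. Since a spot holds many cells, fewer cells of a type and less RNA per cell cannot be told apart.

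**Figure D1:**
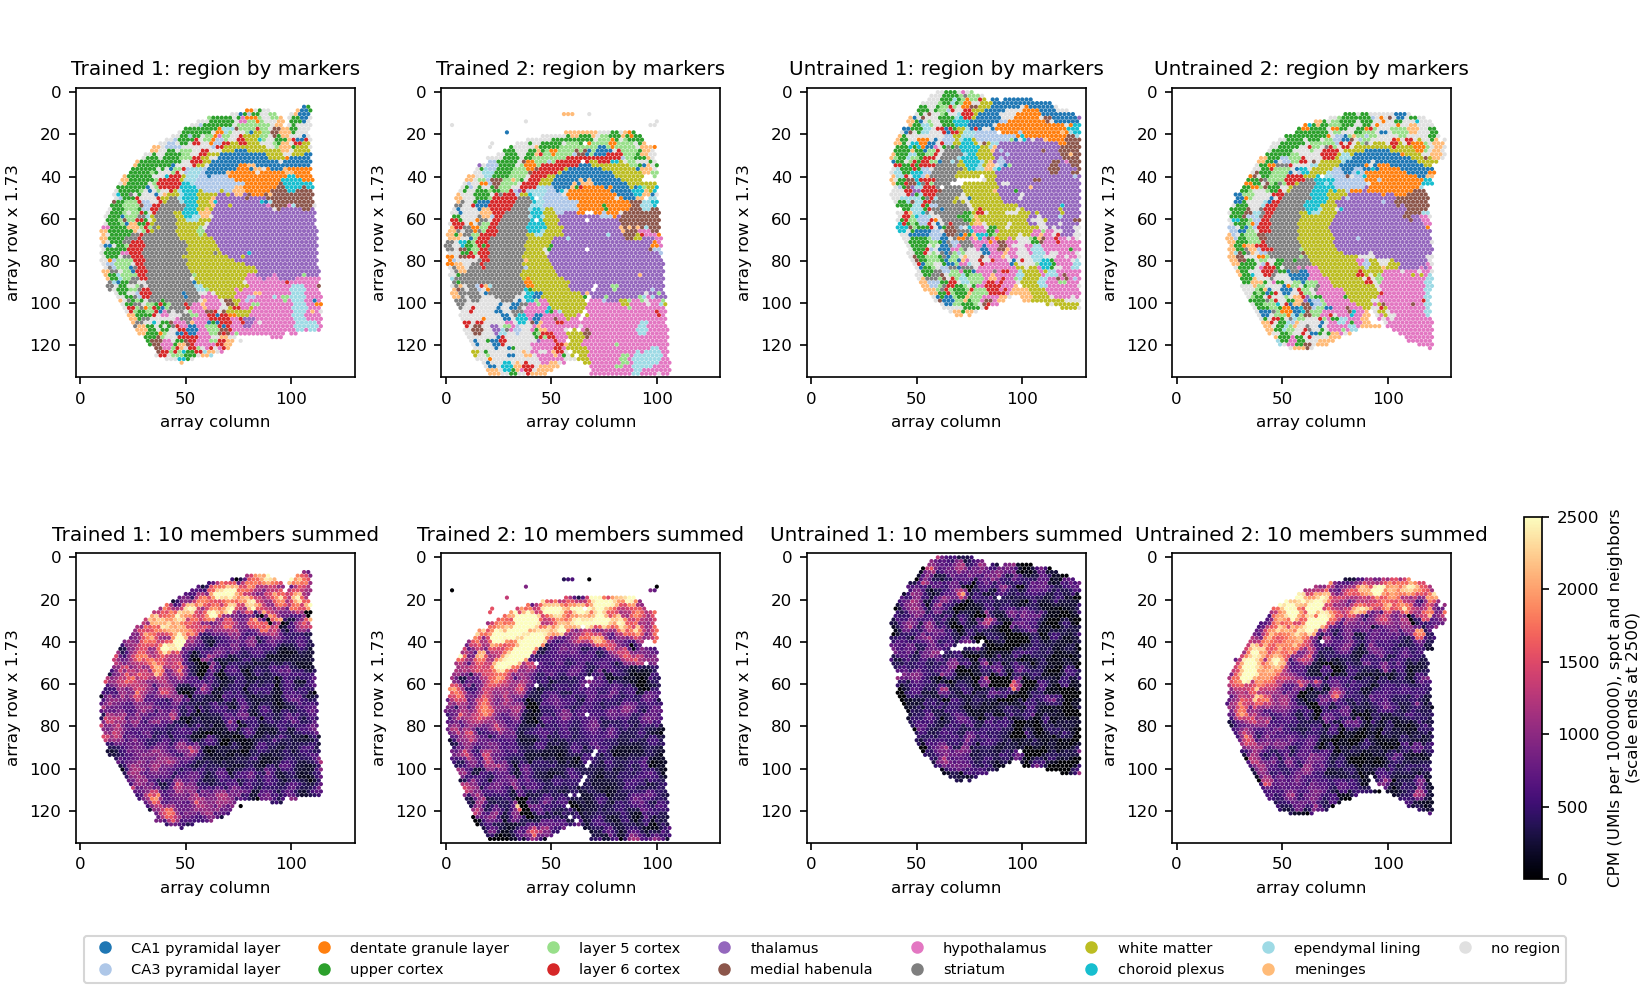
Spots of the 4 sections at their array positions (column and row), colored by the leading marker list (upper panels) and by the summed level of the 10 immediate early genes in CPM, each spot pooled with its neighbors (lower panels, with the color scale ending below the highest spots). The highest levels lie in cortex in trained 1, trained 2 and untrained 2, and untrained 1, which lacks the dorsal cortex, is darker throughout.

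Arc encodes a capsid-like synaptic protein that promotes the removal of AMPA receptors, and it is the gene whose promoter drives the label in these mice. Over whole sections its level was 140 CPM in trained 1, 134 in trained 2, 49.996 in untrained 1 and 136 in untrained 2, from 997, 1384, 178 and 897 UMIs. The exact 95% counting interval in untrained 1, 42.9 to 57.9, lay far below those of the other sections, of which the lowest bound was 127 in trained 2. Untrained 1 was thus low, untrained 2 lay between the trained sections, and the groups overlapped.

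By region, the Arc level was highest in spots led by the layer 6 cortex list, with 269, 372, 58.9 and 266 CPM in trained 1, trained 2, untrained 1 and untrained 2. It was lowest in thalamus, with 43.5, 30.5, 37.8 and 19.1. The order in between ran, by the mean over sections, through upper cortex (209), layer 5 cortex (191), the CA1 pyramidal layer (149), meninges (131), the CA3 pyramidal layer (129), the dentate granule layer (107), striatum (101), medial habenula (92.8), ependymal lining (88.9), choroid plexus (68.6), white matter (67.5) and hypothalamus (45.9). Neighbors in this order differed by less than the SD between sections, except hypothalamus and thalamus, whose gap was 1.10 SD. Compared section by section, layer 5 cortex lay above the CA1 pyramidal layer in all 4, and hypothalamus lay above thalamus in 3. Differences of a region from the mean of the other 13 regions were tested with edgeR, with the section as a block and p adjusted over 8585 genes per region. Arc was called higher in layer 6 cortex (log2 difference 1.37, SE 0.13, adjusted p 6.82e-14), upper cortex (1.08), layer 5 cortex (0.97) and the CA1 pyramidal layer (0.61, adjusted p 0.00562), and lower in thalamus (-1.92, SE 0.18, adjusted p 8.32e-16), hypothalamus (-1.38) and white matter (-0.59). In these tests a region holds 4 sums, and regions of 1 section share its library. The section block takes out differences between whole sections. The p-values thus measure the spread that remains, pooled over all regions. Regions of 1 mouse are counted there as separate sums.

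Across the 10 genes, 9 passed the filter on low counts in this comparison, all but Npas4, and they were called in 55 of 126 tests over 14 regions. Among all genes 13% of 120190 gene and region pairs were called. Split by direction, 34 of the calls were higher and 21 lower, beside 7.6% and 5.42% of all pairs. Among the 9 genes the number of regions called ran from 10 for Egr3, through 8 for Egr1 and Junb, 7 for Arc and Nr4a1, 5 for Dusp1 and 4 for Fos, to 3 for Jun and for Ier2. By region, 8 of the 9 genes were called in upper cortex, all higher, where 16.4% of all genes were called and 9.44% were higher. The other regions in which all calls of these genes were higher were layer 5 cortex with 7 (7.87% of all genes called, 4.76% higher), layer 6 cortex with 6 (8.55% and 5.7%), the CA1 pyramidal layer with 5 (9.48% and 6.48%), the dentate granule layer with 2 (11.6% and 7.18%) and the CA3 pyramidal layer with 1 (9.35% and 6.49%). In hypothalamus (25.2% of all genes called, 13.1% lower) and white matter (27% and 12.1% lower) 7 were called, all lower. In thalamus (32.5%) 7 were called, 2 higher (16.3% of all genes) and 5 lower (16.3%), and in striatum (14.3%) 5 were, 3 higher (8.53%) and 2 lower (5.77%). None was called by edgeR in medial habenula (3.21%), choroid plexus (11.4%), ependymal lining (3.31%) or meninges (1.96%). When untrained 1 was left out, 54 of the 55 calls held with their direction.

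Egr1 encodes a zinc finger transcription factor. Its whole-section level was 195 CPM in trained 1, 245 in trained 2, 103 in untrained 1 and 254 in untrained 2. As with Arc, untrained 1 was low and untrained 2 was as high as the trained sections, so the groups overlapped. By region its mean level was highest in layer 6 cortex and low in thalamus, as that of Arc was. Layer 6 cortex gave 316, 587, 150 and 504 CPM in trained 1, trained 2, untrained 1 and untrained 2, and thalamus gave 80.0, 93.6, 48.9 and 102. The mean of layer 6 cortex (389) lay above that of upper cortex (371) by 0.0830 SD, so these regions could not be ordered. Layer 6 cortex (log2 difference 1.21, adjusted p 8.97e-17), upper cortex (1.08), layer 5 cortex (0.90), the CA1 pyramidal layer (0.54) and striatum (0.40) were called higher, and thalamus (-1.24), white matter (-1.16) and hypothalamus (-0.96) lower. Its mean levels in medial habenula (182), the CA3 pyramidal layer (181) and ependymal lining (180) could not be ordered, with gaps of at most 0.0178 SD between neighbors, and neither could the lowest regions, white matter (81.2) and thalamus (81.04).

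Egr3 encodes a related factor that acts later in the same cascade and is itself a target of activity. Its level was 74.9, 69.3, 61.8 and 91.6 CPM in trained 1, trained 2, untrained 1 and untrained 2, with untrained 2 the highest and untrained 1 the lowest, so the trained sections lay inside the untrained range. Its level dropped steeply from cortex to thalamus: upper cortex gave 132, 142, 90.6 and 167 CPM in those sections, and thalamus 12.8, 17.2, 6.67 and 19.1. The log2 differences were 1.13 (adjusted p 4.38e-13) and -2.22 (adjusted p 4.69e-20). Egr3 was also called higher in striatum (1.004), layer 6 cortex (0.91), the dentate granule layer (0.80), layer 5 cortex (0.62), the CA1 pyramidal layer (0.56) and the CA3 pyramidal layer (0.55, adjusted p 0.0326), and lower in hypothalamus (-1.57) and white matter (-0.78). It was thereby the only gene of the 9 called higher in each of the 3 hippocampal layers, a difference between genes that was not itself tested.

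Fos, Junb and Jun encode subunits of the dimeric transcription factor AP-1. Fos was at 48.0, 63.3, 18.5 and 57.7 CPM over trained 1, trained 2, untrained 1 and untrained 2, and Junb was at 104, 85.3, 46.9 and 99.2. In both genes untrained 1 was the low section and untrained 2 lay within or close to the trained range. Jun ran the other way, at 60.1, 58.2, 74.2 and 65.2 CPM, with untrained 1 the highest section and both trained sections below both untrained sections.

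The AP-1 genes also differed by region. Junb was called higher in upper cortex (log2 difference 0.96, adjusted p 1.83e-11), layer 6 cortex (0.75), the CA1 pyramidal layer (0.71), layer 5 cortex (0.61) and striatum (0.50), and lower in thalamus (-1.79), white matter (-0.94) and hypothalamus (-0.52). In thalamus its level was 30.6, 23.2, 13.3 and 33.0 CPM in trained 1, trained 2, untrained 1 and untrained 2, against 171, 169, 75.9 and 162 in upper cortex. Fos was called higher in upper cortex (0.99) and layer 6 cortex (0.88) and lower in striatum (-0.74) and white matter (-0.79). Its striatal level was 29.3, 30.4, 24.4 and 27.9 CPM in trained 1, trained 2, untrained 1 and untrained 2, the smallest spread between sections of any region for Fos. Striatum thus stood above the mean of the other regions for Junb and below it for Fos. In the CA3 pyramidal layer of untrained 1, Fos had 0 UMIs of 173183. With 3 UMIs taken as the limit of a 0, in place of an exact interval, this allows a level of up to 17.3 CPM by counting alone.

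Jun had an order of its own. By the mean over sections it was highest in the dentate granule layer, with 160, 73.9, 103 and 133 CPM in trained 1, trained 2, untrained 1 and untrained 2 (log2 difference 0.95, adjusted p 7.63e-07). That mean (117) lay above the next, medial habenula (80.5), by 0.99 SD and in 2 of 4 sections. Jun was lowest in striatum, with 31.8, 29.5, 16.3 and 39.8 in those sections (-1.001, adjusted p 3.20e-06). It was also called higher in thalamus (0.29, adjusted p 0.045), where Arc, Egr1, Egr3, Junb and Nr4a1 were called lower. In cortex Jun was not called in any layer, with log2 differences of 0.10 in upper cortex, -0.10 in layer 5 and -0.42 in layer 6.

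Nr4a1 encodes an orphan nuclear receptor that works as a transcription factor. Its level was 87.1, 119, 37.9 and 104 CPM over trained 1, trained 2, untrained 1 and untrained 2, again with untrained 1 low and the groups overlapping. Among the hippocampal layers it was led by the CA1 pyramidal layer, with 149, 181, 72.6 and 181 CPM in those sections (log2 difference 0.94, adjusted p 8.31e-07). The dentate granule layer gave 62.8, 97.7, 57.8 and 65.2, and the CA3 pyramidal layer 74.6, 96.9, 17.3 and 63.2, and neither was called. The CA1 level stood beside those of upper cortex (0.98), layer 5 cortex (0.86) and layer 6 cortex (0.82), from which it did not differ beyond the spread between sections, with gaps of at most 0.0919 SD between neighbors in the order of these regions. Nr4a1 was lower in thalamus (-1.55), hypothalamus (-0.93) and white matter (-0.82).

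Npas4, a transcription factor found mostly in neurons and induced by calcium entry, had the fewest UMIs of the 10 genes in all sections but untrained 1, with 95 and 160 in the trained sections and 40 and 81 in the untrained ones. Its level was 13.3, 15.5, 11.2 and 12.3 CPM in trained 1, trained 2, untrained 1 and untrained 2, with both trained sections above both untrained sections by a small margin, inside the counting intervals of 10.8 to 16.3 in trained 1 and 9.77 to 15.3 in untrained 2. Its mean level by region was highest in upper cortex (22.0 CPM, from 19.9, 29.2, 12.6 and 26.5 in the 4 sections) and lowest in white matter (4.22, with 0 UMIs in both untrained sections). With so few UMIs the order of its regions was not resolved at this depth.

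Ier2 encodes a small nuclear protein and Dusp1 a phosphatase that inactivates MAP kinases. Ier2 was at 19.1, 27.6, 7.58 and 14.7 CPM in trained 1, trained 2, untrained 1 and untrained 2, and Dusp1 at 73.7, 90.7, 35.7 and 65.5. In both genes trained 2 was the highest section and untrained 1 the lowest, and both trained sections lay above both untrained ones. Ier2 was called higher in upper cortex (log2 difference 0.87, adjusted p 0.0079) and layer 5 cortex (0.87, adjusted p 0.0254) and lower in hypothalamus (-1.204). Dusp1 was called higher in layer 5 cortex (0.78), upper cortex (0.63) and thalamus (0.78, adjusted p 1.75e-07), and lower in hypothalamus (-0.77) and white matter (-0.55). Its thalamic level of 94.8, 143, 44.4 and 109 CPM in trained 1, trained 2, untrained 1 and untrained 2 matched that of layer 5 cortex, 94.1, 164, 45.5 and 91.0. Thalamus, where Arc, Egr1, Egr3, Junb and Nr4a1 were called lower, was thus a region where Dusp1 was called higher.

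**Figure D2:**
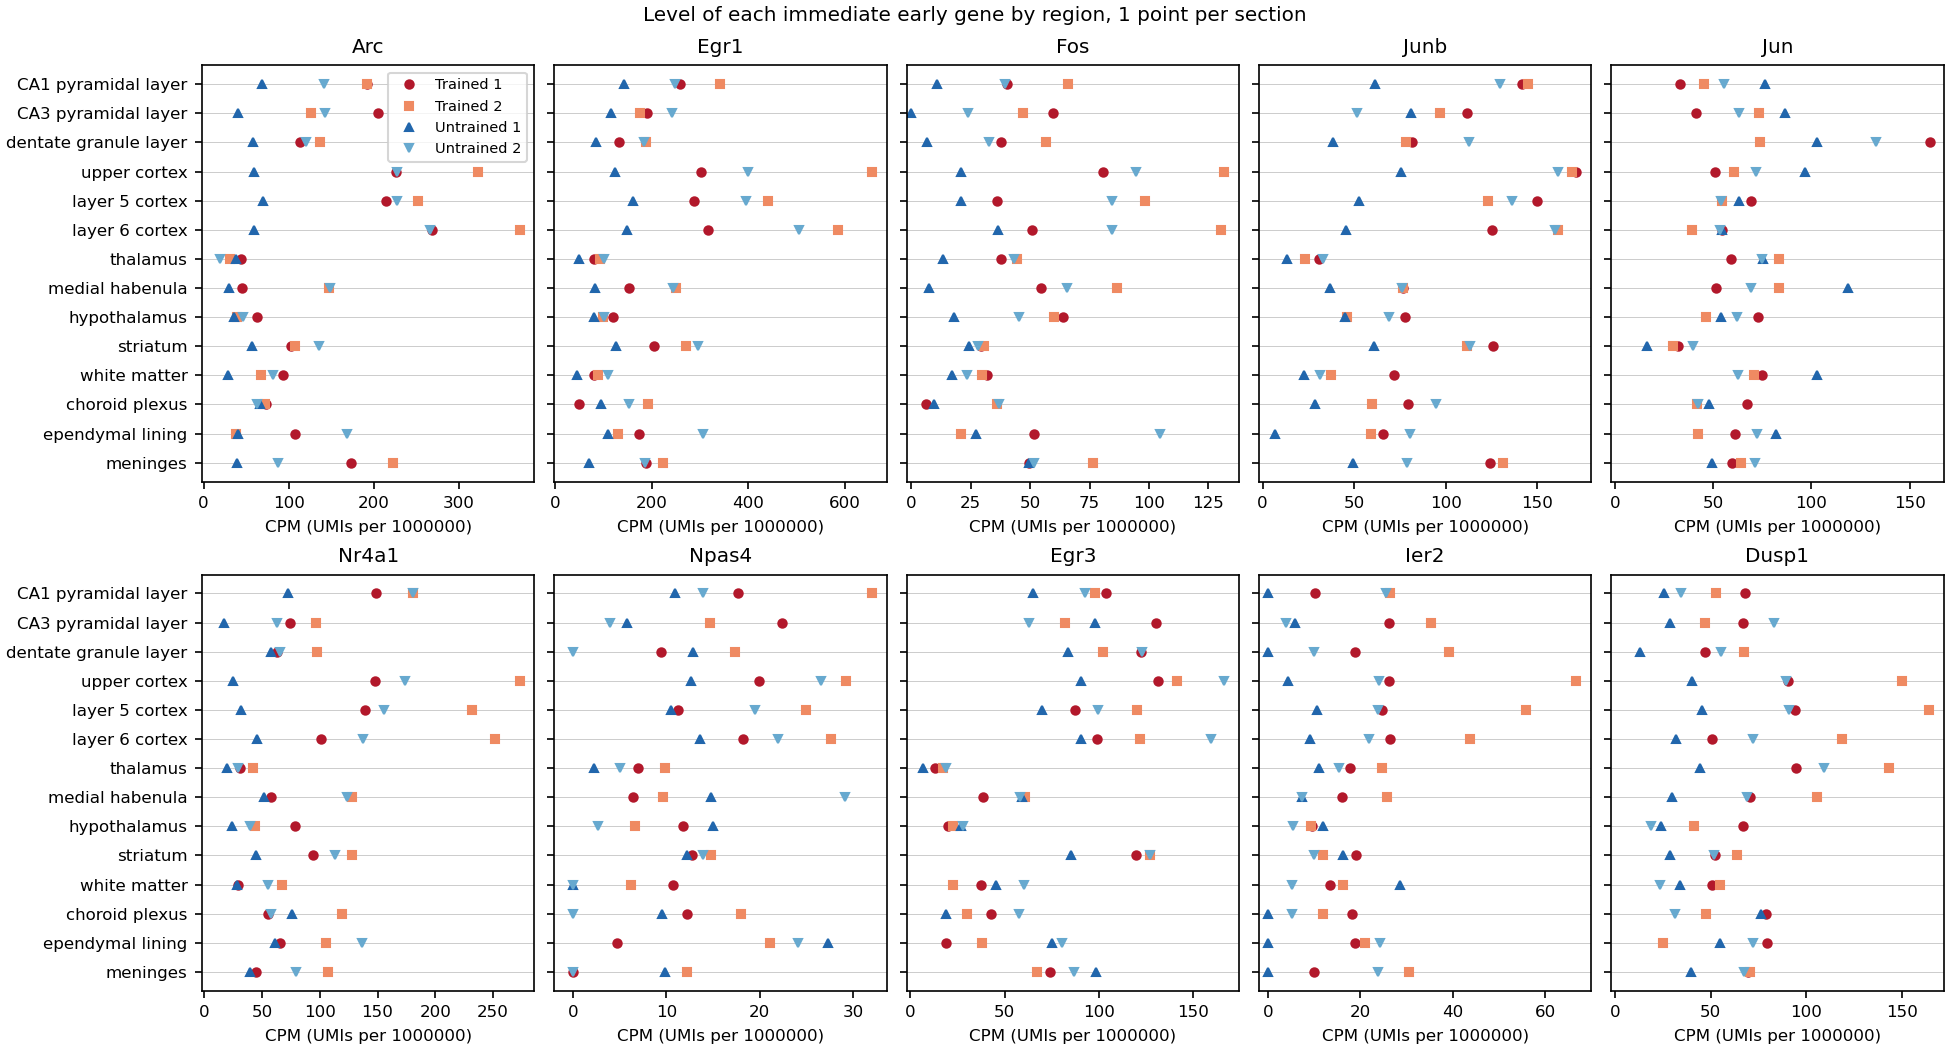
Level of each immediate early gene (horizontal axis, CPM) in the 14 regions (vertical axis), with 1 point per section. Cortical regions lie to the right for Arc, Egr1 and Nr4a1 in 3 sections, with the CA1 pyramidal layer beside them for Nr4a1, untrained 1 (dark blue) lies to the left in most regions of most genes, and thalamus lies far left for Egr3 and Junb but not for Dusp1 or Jun.

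The regional profiles therefore fell close together for some of the genes and not for others. As a description, Pearson's r of log2 mean levels over the 14 regions, which share sections and depth, was 0.92 for Arc with Egr1, 0.92 for Arc with Egr3, 0.89 for Arc with Junb and 0.88 for Egr1 with Nr4a1. It was 0.41 for Arc with Fos, 0.21 for Arc with Dusp1 and -0.17 for Arc with Jun, while Ier2 and Dusp1 gave 0.61. Without untrained 1, a reading added after the data were seen, these values were 0.91, 0.91, 0.91 and 0.94 for the first 4 pairs, 0.54, 0.29 and -0.20 for Arc with Fos, Dusp1 and Jun, and 0.76 for Ier2 with Dusp1. Pairs with Ier2, which has few UMIs, moved more: r without untrained 1 was 0.78 for Ier2 with Egr1 (0.51 over all sections), 0.69 with Arc (0.40), 0.66 with Nr4a1 (0.19) and 0.56 with Junb (0.24). Among 10611 genes outside the marker lists with at least 200 UMIs, the profiles most like that of Arc belonged to Tbr1 (r 0.97), Ccl27a (0.97), Vxn, Ephx4 and Serpini1. For Egr1 they belonged to Ccn3, Tmem132a and Dclk1 (0.93 each), Rasgef1c (0.93) and Kcnh7 (0.92), and for Nr4a1 to Egr1 (0.88), Dclk1 (0.87), Plk2 (0.87), Cdk17 and Arc (0.84 each). These were the 3 genes of the 10 with the most UMIs.

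Other genes of the same response, from lists written by hand, were read in the same tests, so the shares of all genes called that are given above for each region hold for their counts too. Of 13 other immediate early transcription factors tested, 4 were higher in layer 6 cortex, with Nr4a2 at a log2 difference of 2.29, Klf10 at 1.23, Egr4 at 0.73 and Per1 at 0.47, and none was lower. In upper cortex 4 were higher, Bhlhe40 (1.17), Egr4 (0.90), Fosl2 (0.75) and Per1 (0.45), and Cebpd was lower (-0.92). In the CA1 pyramidal layer 3 were higher, Nr4a3 (1.29), Cebpd (1.02) and Egr4 (0.98), and in the dentate granule layer Cebpd (2.03) and Cebpb (1.42) were. In thalamus 1 was higher, Klf6 (0.74), and 7 were lower, led by Egr4 (-2.23) and Klf10 (-2.15), and in hypothalamus 0 were higher and 9 lower. The medians of this list were 0.36 in layer 6 cortex and -0.50 in thalamus, where the medians of all genes were -0.01 and -0.02.

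Of 15 other rapidly induced signaling and effector genes tested, 5 were higher in layer 6 cortex (5.7% of all genes), led by Ier5 (1.21). In thalamus 7 were lower (16.3% of all genes), among them Ier5 (-1.43) and Plk2 (-1.30), while Ier3 (0.95), Gadd45g (0.41) and Fbxo33 (0.31) were higher. Of the phosphatase genes related to Dusp1, Dusp6 was higher in upper cortex (0.60) and layer 5 cortex (0.65), as Dusp1 was, and in layer 6 cortex (0.61), where Dusp1 was not called. Dusp5 (1.60) and Dusp6 (0.96) were higher in the CA1 pyramidal layer, where Dusp1 was not called, and both were lower in hypothalamus (-1.17 and -1.51), as Dusp1 was. Of 10 delayed activity-regulated effectors tested, Bdnf was higher in the CA3 pyramidal layer (1.55), layer 6 cortex (1.07), the dentate granule layer (0.99) and the CA1 pyramidal layer (0.84) and lower in striatum (-0.82) and white matter (-1.40). Homer1 was higher in the 3 cortical regions, striatum (0.67) and the CA1 pyramidal layer (0.56) and lower in hypothalamus (-1.27), thalamus (-1.14) and white matter (-0.78). In hypothalamus Scg2 (1.56), Penk (0.69) and Vgf (0.67) were higher, in the region where Arc, Egr1, Egr3, Junb, Nr4a1, Ier2 and Dusp1 were lower. Of 22 genes for upstream signaling and transcription factors tested, 9 were higher in upper cortex (9.44% of all genes), 8 in the dentate granule layer (7.18%) and 6 in the CA1 pyramidal layer (6.48%), and 10 were lower in hypothalamus (13.1% of all genes), 13 in white matter (12.1%) and 9 in thalamus (16.3%).

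Training was tested first on whole-section sums. Of the 10 genes 0 were called by edgeR at an adjusted p under 0.05, beside 0.0145% of all 13810 genes tested (2 genes), and DESeq2 also called 0 of the 10 and 21 genes in all. At an unadjusted p under 0.05 edgeR gave 3 of the 10 genes and 1099 of all. The largest log2 difference, trained over untrained, was that of Ier2, 0.92 (SE 0.27, adjusted p 0.552), followed by Dusp1 at 0.58 (SE 0.21, adjusted p 0.584) and Arc at 0.45 (SE 0.32, adjusted p 0.75). Jun was at -0.31 (SE 0.12, adjusted p 0.594), Egr3 at -0.19, and Egr1, Fos, Junb, Nr4a1 and Npas4 between 0.21 and 0.41. The median over the 10 genes was 0.33 and that over all genes 0.01. Both trained sections lay above both untrained sections for Ier2, Dusp1 and Npas4, 3 of 10 genes, where 28.8% of all genes did so, and below them for Jun, 1 of 10, where 12.1% did, so these shares were close to those of all genes. The 2 genes called were 2900052N01Rik (log2 difference -1.67, adjusted p 9.00e-04), at 35.8, 34.5, 110 and 103 CPM in trained 1, trained 2, untrained 1 and untrained 2, and Phyhip (-1.14, adjusted p 0.0419), at 59.7, 56.6, 133 and 110, and neither is an immediate early gene. They are named because the count was small, after their values were seen.

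Most of the positive differences rested on untrained 1. Without it the log2 difference was -0.064 for Arc, -0.28 for Egr1, -0.13 for Fos, -0.14 for Junb and -0.10 for Nr4a1, each with its sign changed. It was 0.59 for Ier2, 0.25 for Dusp1 and 0.16 for Npas4, with the sign kept, and -0.21 for Jun and -0.42 for Egr3. The median over the 10 genes went from 0.33 to -0.11. For a single gene, exact permutation over 2 against 2 sections can reach a two-sided p of 0.333 at the lowest, so a comparison of these 4 sections gene by gene cannot pass 0.05 in that way. Averaging levels over the 14 regions, with the same weight for each region in every section, put untrained 1 lowest for Arc, at 137, 152, 49.4 and 134 CPM in trained 1, trained 2, untrained 1 and untrained 2. Equal weights do not make up for the dorsal and medial cortex that untrained 1 lacks, and the part of that cortex was not tested.

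Across the genes, 9 of 10 had their lowest whole-section level in untrained 1, all but Jun, where 36.9% of all 13810 genes had theirs in that section. The median log2 ratio of untrained 1 to the mean of the other 3 sections was -1.12 over the 10 genes and -0.07 over all genes. The ratio was -1.43 for Arc, -1.55 for Fos and -1.42 for Nr4a1, and 0.246%, 0.174% and 0.261% of all genes were at or below these values. The other immediate early transcription factors were lowest in untrained 1 in 13 of 19 cases (median ratio -0.46), and the other rapidly induced genes in 18 of 26 (-0.40). The delayed effectors were so in 3 of 13 (-0.14), and the upstream genes in 1 of 25 (0.08). Untrained 1 was thus the lowest section for most of the rapidly induced genes on these lists and for few of the upstream ones. The summed level of 6 pan-neuronal markers (Snap25, Syt1, Rbfox3, Stmn2, Eno2, Nefl) was close over the 4 whole sections, at 5329, 5274, 5413 and 5220 CPM. Depth and the missing dorsal cortex of untrained 1 move with this result, and their part in it was not tested beyond the values given here.

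**Figure D3:**
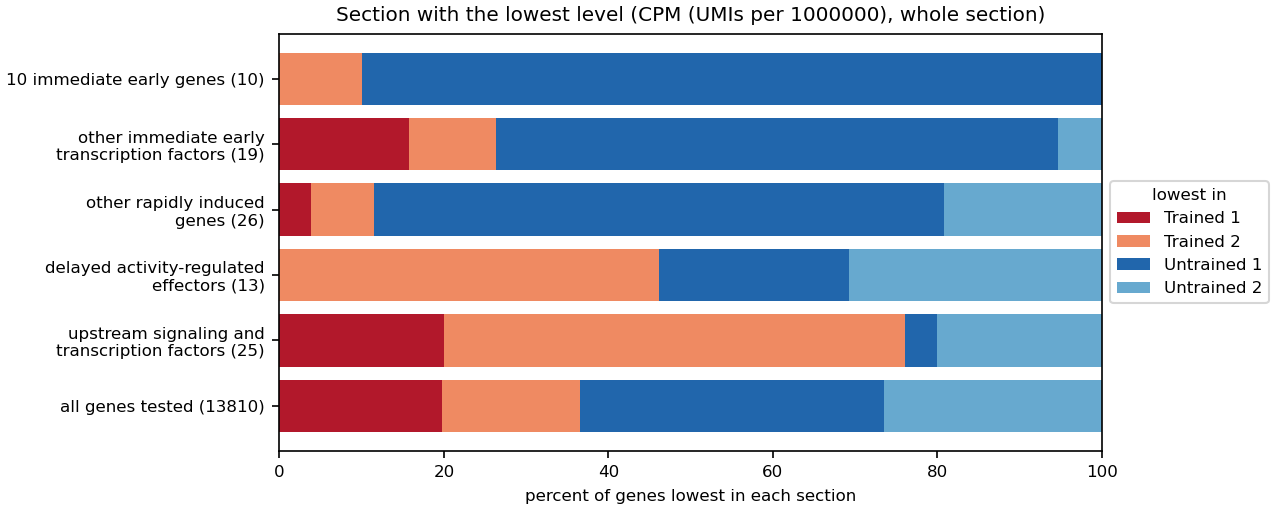
Percent of genes (horizontal axis) whose lowest whole-section level, in CPM, fell in each of the 4 sections, for the 10 immediate early genes, 4 lists of related genes and all genes tested (number of genes in brackets). Untrained 1 was the lowest section for 9 of the 10 genes and for 36.9% of all genes.

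Within regions the same section was low. Untrained 1 had the lowest level in 13 of 14 regions for Egr1, Junb and Nr4a1, in 12 for Fos, 11 for Arc, 10 for Dusp1, 9 for Ier2, 8 for Egr3, 6 for Npas4 and 2 for Jun. Over all genes it was the lowest in 33.3% of 94566 gene and region pairs. The exceptions for Arc were thalamus, choroid plexus and ependymal lining. In all of these regions the summed level of the pan-neuronal markers was highest in untrained 1. In trained 1, trained 2, untrained 1 and untrained 2 it was 5751, 5771, 5991 and 5691 CPM in thalamus. It was 2095, 3182, 4491 and 2882 in choroid plexus and 3568, 3720, 5597 and 4625 in ependymal lining. This summed level was also highest in untrained 1 in the CA1 pyramidal layer, the dentate granule layer, hypothalamus and striatum. Arc was lowest in untrained 1 in those regions, so this order was not particular to the exceptions. The part of the pan-neuronal level in the Arc levels was not tested. In untrained 1 the contrast between layer 6 cortex and thalamus was shallower for Arc, at 58.9 and 37.8 CPM where trained 2 had 372 and 30.5. For Egr3 upper cortex and thalamus were at 90.6 and 6.67 CPM in untrained 1 and at 142 and 17.2 in trained 2, but 6.67 CPM rests on 3 UMIs (exact 95% interval 1.37 to 19.5), so that contrast was not resolved.

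Training was then tested within each region. Of the immediate early genes 0 were called by edgeR in any of the 14 regions, over 115 tests, beside 0.0867% of all 94566 tests (82 calls), and DESeq2 also called 0 of them and 12 in all. The count was not 0 in every alternative, with all calls higher in trained mice. With the replicate number as block 7 of 115 tests were called, beside 381 of all 94566. With no filter 1 of 140 was called, beside 259 of all 220069. Some fits with a section left out, which leave 1 section in a group, made such calls too. By region the share of all genes called was 0.308% in striatum, 0.229% in layer 5 cortex, 0.14% in the CA1 pyramidal layer, 0.105% in upper cortex, 0.0753% in the CA3 pyramidal layer, 0.0639% in hypothalamus, 0.063% in thalamus, 0.0439% in meninges, 0.0148% in the dentate granule layer and 0% in the other 5 regions. Of the 115 tests 23 had an unadjusted p under 0.05, as did 5969 of all. They were 6 of 10 in upper cortex (608 of all 8595 genes), 5 of 9 in CA1 (509 of 7132), 3 in layer 5 cortex, 2 each in the CA3 pyramidal layer, hypothalamus, white matter and meninges, 1 in ependymal lining and 0 in the other 6 regions. In upper cortex the log2 differences were 1.30 for Ier2, 0.80 for Nr4a1, 0.73 for Arc, 0.67 for Egr1, 0.66 for Dusp1 and -0.67 for Jun, with adjusted p of at least 0.585, and without untrained 1 they were 0.73, 0.13, 0.15, 0.12, 0.28 and -0.48. In CA1 Arc was at 192, 192, 68.9 and 141 CPM in trained 1, trained 2, untrained 1 and untrained 2, with a log2 difference of 0.77 (SE 0.24, adjusted p 0.362) and of 0.43 without untrained 1. Egr1 there was at 258, 341, 141 and 248, with log2 differences of 0.56 (adjusted p 0.567) and 0.27 without it, Dusp1 at 68.2, 52.7, 25.4 and 34.7, with 0.92 (adjusted p 0.632) and 0.76, and Fos at 40.4, 65.9, 10.9 and 39.3, with 0.94 (adjusted p 0.679) and 0.45. Both trained sections lay above both untrained ones in these 4 cases, with untrained 1 the lowest. Jun went the other way, at 32.9, 45.2, 76.2 and 55.5 CPM, with -0.71 (adjusted p 0.696) and -0.50 without untrained 1. Summed lists of interneuron and blood genes in CA1 were also higher in both trained sections, with untrained 1 lowest. They were at 1622, 1914, 1252 and 1428 CPM (interneuron) and 842, 738, 374 and 616 (blood) in trained 1, trained 2, untrained 1 and untrained 2. Astrocyte, microglia, endothelial and pan-neuronal lists did not run that way, and the part of these lists in the differences was not tested. The smallest unadjusted p of the 115, singled out after the values were seen, was that of Arc in meninges (5.22e-04, adjusted p 0.288), at 174, 223, 39.5 and 87.1 CPM in trained 1, trained 2, untrained 1 and untrained 2, with log2 differences of 1.35 and of 1.06 without untrained 1. Spots led by the meninges list also held neuronal RNA, with the pan-neuronal list at 4637, 4871, 4357 and 4203 CPM in those sections. Their largest group of adjoining spots held 20, 15, 15 and 15 of 109, 126, 83 and 103 spots. Not all differences shrank when untrained 1 was left out: over the 115 tests the log2 difference was nearer 0 without it in 73 and farther from 0 in 42. Dusp1 in hypothalamus, also singled out after the values were seen, was at 67.1, 41.4, 23.9 and 18.6 CPM in trained 1, trained 2, untrained 1 and untrained 2, with log2 differences of 1.28 (adjusted p 0.52) and, without untrained 1, 1.43 (adjusted p 0.113). In the dentate granule layer Arc was at 113, 137, 57.8 and 120 and in the CA3 pyramidal layer at 205, 126, 40.4 and 142, and the groups overlapped in both. The median log2 difference over the 9 genes tested in CA1 was 0.48, and without untrained 1 it was 0.20, over 10 genes that then passed the filter.

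Whether a training difference in a region differed from that in the other regions was tested as well. Of the immediate early genes 0 were called by edgeR over 126 tests, beside 0.0125% of all 120190 tests (15 calls), with 11 of the 126 and 5905 of all at an unadjusted p under 0.05, and DESeq2 also called 0 of them and 14 in all. The count of 0 did not hold in every fit with a section left out, which leaves 1 section in a group. The 15 calls over all genes made up 0.0815% of the genes tested in ependymal lining, 0.0466% in striatum, 0.0233% in medial habenula, 0.0116% in hypothalamus, 0.0116% in white matter and 0% in the other 9 regions. The genes of the 4 related lists gave 0 calls for training on whole sections. Their medians were -0.07 for the other transcription factors, 0.14 for the other rapidly induced genes, -0.15 for the delayed effectors and -0.22 for the upstream genes. Within regions these lists gave 1 call, Mapk3, lower in layer 5 cortex of trained mice (log2 difference -0.98, adjusted p 0.0394).

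The share of spots with at least 1 UMI of a gene rises with depth, so spots were thinned to 1000 UMIs and shallower spots left out, which kept 2189, 2451, 1237 and 1975 spots in trained 1, trained 2, untrained 1 and untrained 2. Arc was then found in 11.2%, 10.8%, 4.93% and 12.1% of them (exact 95% interval in untrained 1, 3.79% to 6.29%). Egr1 was found in 16.4%, 18.6%, 8.49% and 20.7%, and Nr4a1 in 8.04%, 10.4%, 3.64% and 9.16%. In these spots untrained 1 was the lowest section for the 3 genes, and untrained 2 was the highest for Arc and Egr1. With spots thinned to 500 UMIs Arc was found in 7.07%, 5.59%, 2.58% and 5.44%, so that untrained 1 was again the lowest and untrained 2 lay just below trained 2. The number of spots left out differed between sections, and the part of depth in these shares was not tested. In the spots thinned to 1000 UMIs, Jun was found in 5.39%, 5.18%, 7.28% and 5.52%, and Npas4 in 1.46%, 1.39%, 1.37% and 1.01%. At least 1 of the 10 genes was found in 50.4%, 49.1%, 34.0% and 51.3% of the thinned spots, and at least 2 in 17.3%, 18.6%, 7.36% and 20%.

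The trained minus untrained difference in share was 2.49 percentage points for Arc (two-sided exact permutation over sections, p = 1), and without untrained 1 it was -1.10. The change of sign did not hold with other depths and sets of spots: with spots thinned to 500 UMIs, which keeps more spots, the values were 2.32 and 0.89, with both trained sections above both untrained ones, and over all spots, not thinned, they were 9.14 and 1.72. For Egr1 it was 2.86 and without untrained 1 -3.25. For Dusp1 it was 2.51 (two-sided exact permutation, p = 0.333, the smallest the design allows) and without untrained 1 1.23. In upper cortex Arc was found in 17.5%, 32.7%, 9.52% and 20.1% of the thinned spots of trained 1, trained 2, untrained 1 and untrained 2, and in the CA1 pyramidal layer in 15.8%, 16.7%, 5.95% and 10.7%. In CA1 the exact 95% intervals were wide, 1.96% to 13.3% in untrained 1 and 5.80% to 17.5% in untrained 2, from 84 and 122 spots.

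Co-detection asks whether the same spots hold more than one of these genes. In the thinned spots Arc and Egr1 were found together in 241 spots, where the product of their shares within each section gives 144, a ratio of 1.67, and where the shares of each region within a section give 186, a ratio of 1.29. The ratio by section ran from 1.22 to 1.88, above 1 in 4 of 4 sections, and within regions from 0.996 to 1.51. Arc with Fos gave 79 spots against 40.5, a ratio of 1.95 and 1.64 within regions, and Arc with Nr4a1 gave 137 against 71.5, 1.92 and 1.44 within regions. For both of these pairs the ratio within regions was above 1 in all 4 sections. Arc and Jun were found together in 37 spots against 44.6, a ratio of 0.83 and 0.93 within regions. Over all spots, not thinned, the ratio of Arc and Jun was 1.46 (1.41 within regions) and above 1 in all 4 sections, and since depth and the set of spots both changed, their parts cannot be told apart.

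Over the 45 pairs of the 10 genes, 36 had a ratio above 1, with a median of 1.44, and within regions 37 did, with a median of 1.21. Without untrained 1 the medians were 1.44 and 1.21 again. The excess was thus smaller within regions than across whole sections. In the thinned spots Jun was the gene with the lowest ratios, with Npas4 (0.51, from 3 spots) and with Ier2 (0.65, from 5 spots). The highest ratio over sections was that of Nr4a1 with Npas4, 2.22 from 19 spots, and the highest within regions that of Npas4 with Dusp1, 1.87 from 14 spots. With spots thinned to 500 UMIs, Nr4a1 with Npas4 had 1 spot and a ratio of 0.42, so ratios from so few spots are not resolved. No test was made of these ratios, and the spots of a section are not independent.

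Gt(ROSA)26Sor, the locus that carries the eYFP cassette in this line, was read beside Arc, whose promoter drives the Cre. The authors take this feature as the transcript of eYFP, but the count tables do not show whether RNA of the cassette is counted in it, so the values below are those of the feature only. Its level was 122 CPM in trained 1, 123 in trained 2, 12.6 in untrained 1 and 220 in untrained 2. The untrained sections were thus the lowest and the highest, 17.4-fold apart, and the trained sections lay between them. Untrained 1 was its lowest section in 14 of 14 regions. In layer 6 cortex, where Arc was high, Gt(ROSA)26Sor was at 117, 119, 27.2 and 188 CPM in trained 1, trained 2, untrained 1 and untrained 2, and in thalamus, where Arc was low, at 151, 146, 6.67 and 262. It was thus higher in thalamus in 3 sections. In untrained 1 both levels rest on few of the 450000 UMIs of thalamus and 220588 UMIs of layer 6 cortex, so their order was not resolved. Arc and Gt(ROSA)26Sor were found together in 99 thinned spots against 103 from their shares, a ratio of 0.96, and 0.98 within regions. The ratio was 1.03 (1.10 within regions) in spots thinned to 500 UMIs and 1.38 (1.32) over all spots, not thinned, which are other depths and larger sets of spots.

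**Figure D4:**
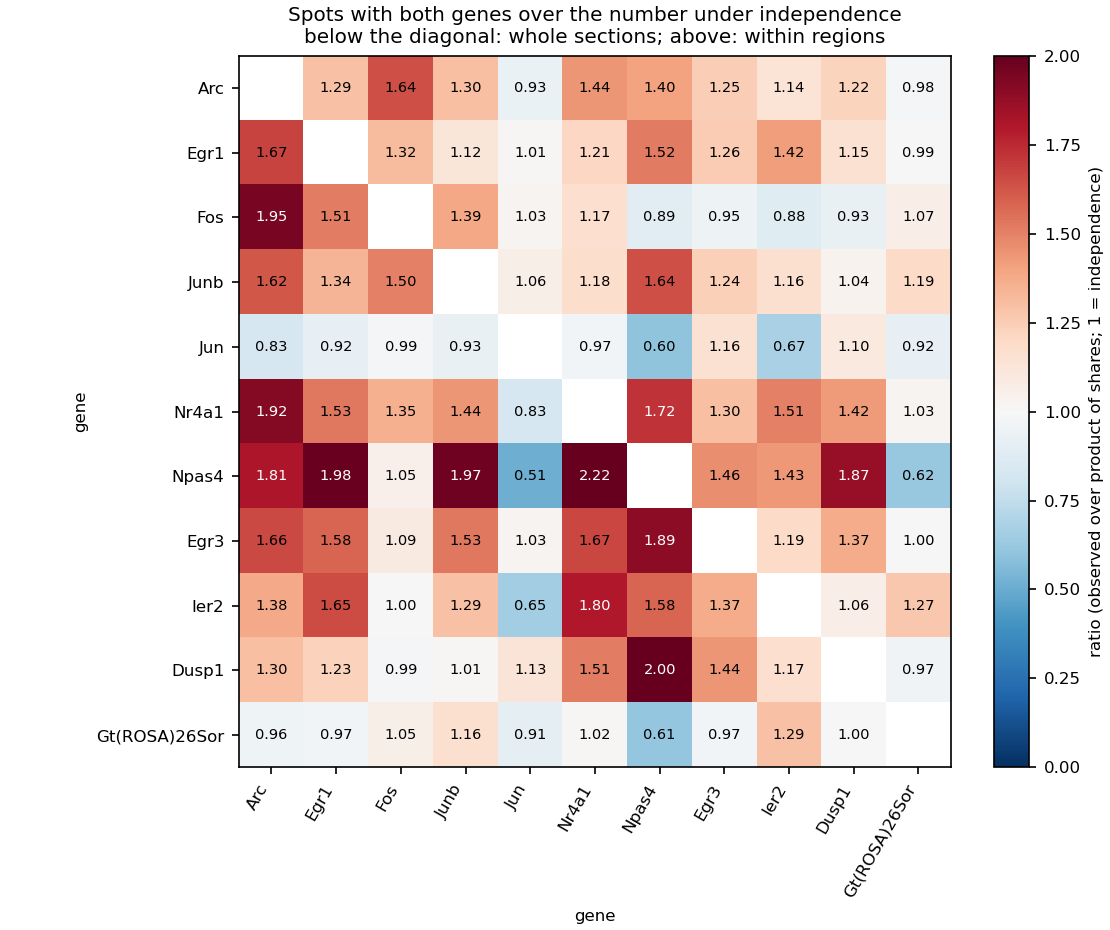
Ratio of the number of spots holding both genes to the number given by the product of their shares, in spots thinned to 1000 UMIs, for the 10 immediate early genes and Gt(ROSA)26Sor (genes on both axes). Ratios below the diagonal use the shares of whole sections and ratios above it the shares within regions. Most pairs lie above 1, while Jun and Gt(ROSA)26Sor lie near or below 1 with most genes.

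All 10 genes are annotated as protein coding (GENCODE vM21, GRCm38), and Arc (ENSMUSG00000022602) lies on the reverse strand of chromosome 15, from 74669083 to 74672570. Nr4a1 is on chromosome 15 too, Junb and Ier2 are on chromosome 8, and the other genes of the 10 each lie on a chromosome of their own. The annotated span of Junb overlaps the end of Prdx2, and that of Jun overlaps Junos, each on the opposite strand. That of Dusp1 overlaps Ergic1 on the opposite strand and AC122252.1 on its own strand, and these 4 overlapping genes are features of the count tables.

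Because several of the genes shared much of their regional order, the promoters were read for letters bound by the factors that induce such genes. Promoter sequences (RefSeq, GRCm38.p6, 250 bases before to 50 after the start, both strands) were at hand for 6 of the 10, Jun, Junb, Fos, Nr4a1, Dusp1 and Npas4, and not for Arc, Egr1, Egr3 and Ier2. The full cyclic AMP response element, TGACGTCA, was found in 1 of the 6, Dusp1, and in 1.79% of 32851 promoters. Its core TGACG, which overlaps the full element, was found in 5 of the 6, all but Jun, and in 20.8% of promoters. The AP-1 site TGANTCA (7.81% of promoters), the EGR site GCGTGGGCG (0.612%) and the CArG box (1.63%) were found in 0 of the 6. These matches describe letters only, and no binding was measured. The stretches below, 65 bases on the gene's own strand around the match closest to the start, show the matches within them in capitals and leave out matches farther from the start in Dusp1 (1), Fos (1) and Nr4a1 (2), CGTCA being the core read on the opposite strand. They lie at chr17:26508578-26508642 (reverse), chr12:85473794-85473858 (forward), chr8:84978820-84978884 (reverse), chr19:4990106-4990170 (reverse) and chr15:101266776-101266840 (forward).
Dusp1: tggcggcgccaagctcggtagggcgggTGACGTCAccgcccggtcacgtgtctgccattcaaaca
Fos: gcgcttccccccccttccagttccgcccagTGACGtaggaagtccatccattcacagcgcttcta
Junb: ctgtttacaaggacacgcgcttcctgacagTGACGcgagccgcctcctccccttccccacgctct
Npas4: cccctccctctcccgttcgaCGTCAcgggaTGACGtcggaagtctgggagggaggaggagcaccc
Nr4a1: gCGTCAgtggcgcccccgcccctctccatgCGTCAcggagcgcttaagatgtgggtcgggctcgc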

How the data were processed

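Visium counts of 4 sections (2 trained, 2 untrained mice) were used as the authors deposited them: UMI counts per gene and spot, unnormalized. The methods name Space Ranger on mm10, in a later version than the 1.2.2 of the file headers, and the submission names Cell Ranger 8 and GRCm39. Depth was 3560294 to 10330015 UMIs per section. The 10 genes, marker lists and related lists were chosen with earlier results of these data known. Each spot, pooled with up to 6 neighbors, went to the marker list with the highest mean z-score above 0.5. Sums per section, or per region and section (at least 20 spots in each), were compared with edgeR 4.0.16 (filterByExpr, TMM, quasi-likelihood) under R 4.3.3, Benjamini-Hochberg adjusted over all genes, threshold 0.05. The fits were tested on simulated data. Intervals (95%) are exact Poisson for levels and exact binomial for shares of spots, and cover counting error only. Genes named besides the 10 were, per related list, those called, up to 4 per direction with the largest change, and the 5 most alike by r of log2(level + 1). Alternatives were DESeq2 1.42.0, no filter on low counts, abundant RNAs left out, thinning, other region rules, equal region weights (limma 3.58.1), a block for the replicate number, a fit without the section block and each section left out. Images and single-nucleus data were not used.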

Additional observations from a re-analysis of the deposited data

Results flagged for a closer look

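In 15 of 120190 gene and region pairs, the difference between trained and untrained sections within a region differed from that in the other regions past the threshold of the interaction test (edgeR, adjusted p under 0.05), and this difference between groups is why they are set apart here. Of the immediate early genes 0 were among them. In ependymal lining 7 pairs were called, in striatum 4 (Arpp21, Sez6, Ppp1r1b and Dgkb), in medial habenula 2 (Hcrt and Ttr), in hypothalamus 1 (Avp) and in white matter 1 (Mag), names given after their values were seen. Of these Ppp1r1b and Mag are on the marker lists of their regions. Without untrained 1 the number called was 2, without trained 1 it was 135 and without trained 2 it was 32. No explanation was weighed for these calls, and none of them is part of a statement about the immediate early genes.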

How the results depend on the processing

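The regional differences of the immediate early genes were largely stable. Over 10 alternatives the 55 calls kept their direction in every case that could be computed, 544 in all, and stayed past the threshold in 491. The 53 that no longer passed it came mainly from the fit with no block of section (16) and from leaving out trained 2 (13).

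The counts of genes called for training were not stable. On whole sections the count was 2 as reported, 211 with no filter on low counts, 47 with the replicate block, 21 with DESeq2 and 29 with regions weighted equally, and from 2 to 848 with a section left out, the highest without trained 1. Within regions it was 82 as reported, 259 with no filter, 381 with the replicate block, 5 with sums thinned to the smallest total, 12 with DESeq2, 19 with a region score above 1, and from 108 to 1074 with a section left out. Of the immediate early genes, 0 of 115 tests within regions were called as reported, beside 82 of all 94566. With no filter it was 1 of 140, beside 259 of 220069, and with the replicate block 7 of 115, beside 381 of 94566. Some fits with a section left out, which leave 1 section in a group, made such calls too. This count was added after seeing the data. For training effects that differ between regions it was 15 as reported, 57 with no filter, 69 with spots scored without neighbors, and from 2 to 135 with a section left out. With a section left out, the lone section of a group is assumed to vary like the others. Why the counts moved was not tested. Deviations of same-numbered sections from their group means correlated at 0.0190 over 13810 genes, so no pairing by replicate number was seen. With 2 sections per group this is a single value, the same for both numbers, and it cannot exclude such pairing.

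The log2 differences of the immediate early genes on whole sections changed sign in 6 of 100 comparisons, all with a section left out: Arc ranged from -0.064 to 1.37, Egr1 from -0.28 to 1.01, Fos from -0.13 to 1.4995, Junb from -0.14 to 0.93 and Nr4a1 from -0.10 to 1.35, each lowest without untrained 1 and highest without untrained 2, and Egr3 from -0.42 to 0.14. Dusp1 and Ier2 passed the threshold with no filter, in a fit whose count over all genes, given above, was also higher than as reported. Other passes came from fits with a section left out, which leave 1 section in a group. Differences in the share of spots changed sign in 8 of 60. With a section left out they ranged from -1.10 to 6.07 percentage points for Arc, -3.25 to 8.97 for Egr1, -1.09 to 2.94 for Fos, -0.53 to 4.12 for Junb and -1.56 to 1.28 for Egr3. In spots not thinned they were 2.85 for Jun and 3.12 for Egr3. The cause of these changes was not tested.

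The median co-detection ratio over pairs was 1.44 as reported and 1.97 in spots not thinned, and within regions 1.21 and 1.55. With any section left out, added after seeing the data, it moved by less than the SD between sections. Depth raises the number of spots positive for each gene, so the unthinned ratios also hold differences in depth between spots. Depth limits Npas4 and Ier2 the most: neither has more than 285 UMIs in any section, and Npas4 was tested for training within 1 region.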
